A study of Mus musculus with 3 samples.

Results

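The regions described here are stretches of the mouse genome that were called as peaks in at least 2 of 3 immunoprecipitations of cerebellum DNA with an antibody against 5-hydroxymethylcytosine (5hmC). Hydroxymethylated DNA immunoprecipitation (hMeDIP) pulls down sonicated fragments with an antibody against 5hmC, and nanopore sequencing of the product gives both the place of each fragment and the state of its CpGs. The peaks of the 3 replicates on chromosomes 1 to 19 were merged wherever they overlapped by at least 1 bp, which gave 13285 regions. Of these, 793 (5.97%) held peaks of 2 or 3 lists and are called repeated regions below, and the other 12492 held peaks of a single list. The repeated regions were thus chosen by the peak calls themselves, so that fold enrichment and peak overlap are given as a description with no test.

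All 3 immunoprecipitations used cerebellum DNA of an 8-week-old female C57Bl6Cr mouse, with 1 µg of DNA sonicated to 362 bp on average in each. Replicate 1 was made with a whole serum antibody against 5hmC, and replicates 2 and 3 with an IgG-purified one. No treatment or genotype was compared, and no allele was altered. The names of the sequencing runs give the same animal for the 3 reactions, so that replicates differ by reaction and sequencing run but not by mouse, and a difference between the antibodies cannot be told apart from one between reactions. Every list was called against the same library of input DNA, so that the lists are not independent of one another. Replicate 1 stood apart in its size: it held 490 peaks on chromosomes 1 to 19, against 8506 in replicate 2 and 5146 in replicate 3. The base-calls at CpGs numbered 68673, 101734 and 73834 in replicates 1, 2 and 3, and every one of them lay within a merged region.

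5hmC is made from 5-methylcytosine (5mC) by the TET enzymes, as a step of active demethylation and as a stable mark in its own right. It is abundant in neurons, where it lies mainly in the bodies of genes that are in use, and it is scarce at the CpG islands of active promoters. The cerebellum holds granule neurons in great excess over Purkinje neurons, interneurons and glia, so that DNA of the whole tissue is mostly granule neuron DNA. An antibody against 5hmC needs modified cytosines to bind, and a fragment with more CpGs can carry more of them.

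The sequences of 5 repeated regions follow, because they differ in the modification of their CpGs, whose shares are given with the results below. Each is the plus strand of GRCm39 over 300 bases centred on the highest summit of the region. Capitals mark each CG at which 5hmC was called at least once in at least 2 of the 3 replicates, so that a deeper site has more chance to be capitalised. The window in Kcnj11, which codes for the pore of the ATP-sensitive potassium channel, was chr7:45748445-45748744 and held 15 CpGs, 9 of them in capitals. The window in the coding sequence of Kcnd2, which codes for an A-type potassium channel, was chr6:21217101-21217400 and held 9 CpGs, 3 in capitals. The window in intron 4 of Dync1li2, which codes for a chain of the dynein motor, was chr8:105161465-105161764 and held 11 CpGs, 2 in capitals. The window in a cluster of multi-copy regions beside Ezh2 was chr6:47649004-47649303 and held 12 CpGs, 1 in capitals. A very deep region beside Fam118b gave the window chr9:35216589-35216888, with 7 CpGs and 5 in capitals, although 5hmC made up a few percent of its calls.
Kcnj11: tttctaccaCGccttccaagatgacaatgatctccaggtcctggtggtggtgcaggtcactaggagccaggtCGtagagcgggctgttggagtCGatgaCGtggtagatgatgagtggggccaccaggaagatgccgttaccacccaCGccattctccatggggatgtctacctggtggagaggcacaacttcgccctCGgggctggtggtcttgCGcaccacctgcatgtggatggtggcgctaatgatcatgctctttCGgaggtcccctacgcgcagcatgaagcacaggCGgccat
Kcnd2: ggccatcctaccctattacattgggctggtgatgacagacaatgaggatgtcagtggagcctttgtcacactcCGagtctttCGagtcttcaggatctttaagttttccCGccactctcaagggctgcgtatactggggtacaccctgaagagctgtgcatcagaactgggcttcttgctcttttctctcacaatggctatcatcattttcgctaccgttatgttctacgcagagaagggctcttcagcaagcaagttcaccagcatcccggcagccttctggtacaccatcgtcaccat
Dync1li2: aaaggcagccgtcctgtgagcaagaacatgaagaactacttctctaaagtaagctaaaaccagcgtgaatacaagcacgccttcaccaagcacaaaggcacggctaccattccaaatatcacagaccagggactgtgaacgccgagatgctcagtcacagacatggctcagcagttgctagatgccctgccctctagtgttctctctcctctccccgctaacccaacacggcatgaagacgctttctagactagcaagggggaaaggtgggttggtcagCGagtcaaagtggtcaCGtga
beside Ezh2: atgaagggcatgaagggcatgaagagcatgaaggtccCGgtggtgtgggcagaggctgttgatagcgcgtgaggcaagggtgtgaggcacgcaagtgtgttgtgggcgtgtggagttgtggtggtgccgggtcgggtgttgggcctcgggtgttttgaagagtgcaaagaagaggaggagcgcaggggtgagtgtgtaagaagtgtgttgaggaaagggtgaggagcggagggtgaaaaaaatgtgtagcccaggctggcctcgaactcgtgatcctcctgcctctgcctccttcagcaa
beside Fam118b: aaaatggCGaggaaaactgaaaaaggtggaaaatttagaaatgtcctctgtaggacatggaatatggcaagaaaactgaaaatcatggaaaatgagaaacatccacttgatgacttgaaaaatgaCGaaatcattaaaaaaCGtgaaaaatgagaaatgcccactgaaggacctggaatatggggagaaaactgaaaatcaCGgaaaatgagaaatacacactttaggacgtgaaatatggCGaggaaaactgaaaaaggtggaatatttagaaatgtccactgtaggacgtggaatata

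Most repeated regions came from the IgG-purified replicates. Replicates 2 and 3 shared 623 of them, replicates 1 and 2 shared 82, replicates 1 and 3 shared 35, and 53 held peaks of all 3 lists. Calling the regions without replicate 2 left 84 and without replicate 3 left 132, against 675 without replicate 1. These regions took up 170 of the 490 peaks of replicate 1 (34.7%), 762 of the 8506 peaks of replicate 2 (8.96%) and 718 of the 5146 peaks of replicate 3 (14%). They held a larger share of the base-calls than of the peaks, namely 59.5%, 27.4% and 32.8% of the calls of replicates 1, 2 and 3. Calls were counted over whole merged regions, which merging lengthens and which held a median of 16 CpGs against 7. Shares of calls and of peaks are thus not like for like. Part of the larger share lay in 7 very deep repeated regions, with 20 or more calls at a CpG. These held 73.1%, 43.1% and 39.8% of the members' calls in replicates 1, 2 and 3. The methods state that peaks on a blacklist of high-signal regions were removed and that masked repeats were left out of the base-calls, and neither step could be checked here for these deep regions.

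The repeated regions were 304 to 3328 bp long with a median of 681 bp, against a median of 304 bp for the regions of a single list. Merging lengthens a region by construction, and 181 repeated regions (22.8%) reached 1 kb against 2.01% of the single-list regions. The median number of CpGs was 16 against 7, and 6 repeated regions held none. The longest was in Myh7b, which codes for a myosin heavy chain, at chr2:155472240-155475567, where it ran over exons 30 to 40. It was followed by a region of 2649 bp in the multi-copy cluster beside Ezh2 and by one of 2631 bp within exon 1 of Celsr2, an atypical cadherin of planar cell polarity. Regions of all 3 lists had a median of 1129 bp and 3.32 CpGs per 100 bp, those shared by replicates 2 and 3 had 672 bp and 2.18, and those of replicates 1 and 2 had 651 bp and 2.35. The rule had no clear edge in these values, although fold enrichments recurred at few values, as given below. The 50 repeated regions whose peaks of different lists overlapped by 50 bp or less had a median fold enrichment of 3.85 and 2.01 CpGs per 100 bp, and the 80 single-list regions with a peak of another list closer than 50 bp had 3.85 and 1.99.

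The median fold enrichment over input hardly differed between peaks in repeated and single-list regions in replicates 2 and 3. It was 4.90 and 4.72 in replicate 1, 3.83 and 3.81 in replicate 2, and 3.87 and 3.86 in replicate 3. Fold enrichments recurred at few values, such as 2.87, 3.83, 4.79 and 5.74 in replicate 2 and 2.90, 3.87, 4.84 and 5.81 in replicate 3. Close medians therefore cannot show that enrichment was alike. The difference of medians, 0.0681 over the 3 replicates, was 0.77 with regions chosen without replicate 2 and 0.19 at q at or below 0.01. The highest values did lie in repeated regions, at 17.8 against 8.29 in replicate 1, 13.3 against 8.82 in replicate 2 and 21.3 against 11.8 in replicate 3.

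CpG density at the summit was higher in repeated regions than in single-list regions in all 3 replicates. It was counted in the 300 bp around each summit, a fixed window that merging does not lengthen. The mean was 3.24 CpGs per 100 bp against 2.22 in replicate 1, 2.64 against 1.92 in replicate 2 and 2.72 against 1.98 in replicate 3, while chromosomes 1 to 19 hold 0.851 on average. The difference was 0.828 ± 0.17 CpGs per 100 bp (SD, n = 3; two-sided exact sign-flip permutation test over replicates, p = 0.25, the smallest that 3 replicates allow, and 0.333 after Benjamini-Hochberg adjustment over the 12 comparisons made here). GC content followed the same order, at 53.7% against 50.2%, 51.5% against 48.7% and 51.7% against 48.9%, a difference of 3.07 ± 0.423 percentage points (SD, n = 3; exact sign-flip permutation p = 0.25). No groups overlapped in either measure, but the repeated peaks of the replicates lie at shared loci of 1 reference genome by construction, so that their likeness between replicates is not independent support. Leaving out replicate 2, after which 84 repeated regions remained, gave a difference of 1.33 CpGs per 100 bp.

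**Figure D1:**
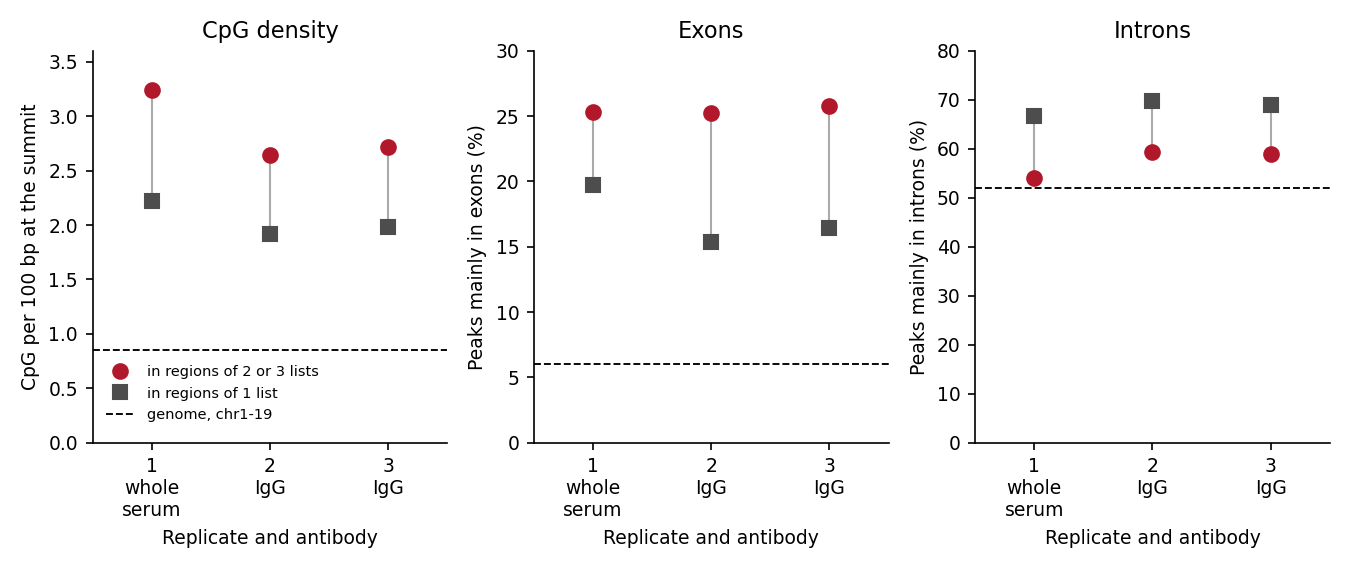
Mean CpG density of the 300 bp at the summit and the percentage of peaks lying mainly in exons or in introns, for peaks in regions of 2 or 3 lists (circles) and of 1 list (squares), by replicate; dashed lines give chromosomes 1 to 19 as a whole (CpG density) or their 500 bp windows (features). In each replicate the circles lie above the squares for CpG density and exons and below them for introns.

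The share of peaks that fell in repeated regions rose with CpG density in each replicate. In replicate 2 it went from 4.82% (57 of 1182 peaks; 95% exact interval 3.67 to 6.2%) below 1 CpG per 100 bp to 30.8% (41 of 133; 23.1 to 39.4%) at 6 or more. In replicate 3 the same shares were 8.93% (56 of 627) and 39.2% (38 of 97). In replicate 1 they were 21.4% (9 of 42; 10.3 to 36.8%) and 75.9% (22 of 29; 56.5 to 89.7%). Peaks whose summit was single-copy in the genome gave 4.41% and 29.5% in replicate 2, 8.24% and 38.8% in replicate 3, and 17.6% and 73.1% in replicate 1. These shares describe how the choice of regions relates to the sequence, and the intervals cover counting error only.

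**Figure D2:**
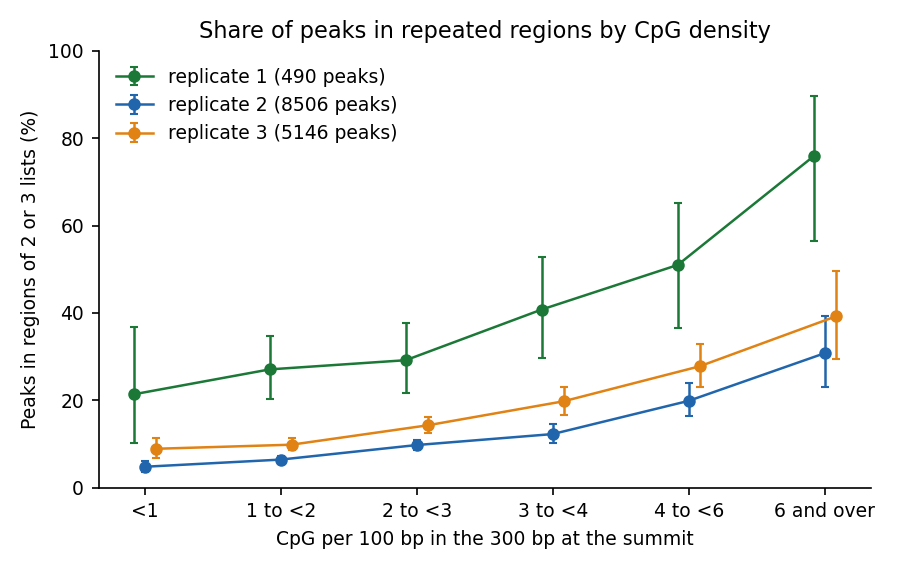
Percentage of each replicate's peaks that lie in regions of 2 or 3 lists, by the CpG density of the 300 bp at the summit, with 95% exact binomial intervals. The percentage is higher in each step of CpG density in all 3 replicates, and replicate 1, with the fewest peaks, lies highest throughout.

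Exons held more of the repeated peaks and introns fewer. A peak counted towards whichever feature held the largest part of it. Promoters were the 1000 bp before the start of any annotated gene, and a base in 2 features counted as promoter before exon and as exon before intron. Exons held 25.3% of the peaks in repeated regions against 19.7% in replicate 1, 25.2% against 15.4% in replicate 2 and 25.8% against 16.4% in replicate 3, a difference of 8.28 ± 2.32 percentage points (SD, n = 3; exact sign-flip permutation p = 0.25), which was 4.86 when peaks had to overlap by 50% of both. Introns held 54.1% against 66.6%, 59.4% against 69.8% and 58.9% against 68.9%, which differed by -10.9 ± 1.32 percentage points (exact permutation p = 0.25, n = 3). Of 500 bp windows of chromosomes 1 to 19, 6.04% lay mainly in exons and 52% mainly in introns. For every feature, as for CpG density, the repeated peaks lie at loci that the replicates share by construction. Their likeness between replicates is therefore not independent support. Promoters held 8.82% against 5.94%, 6.17% against 5.23% and 5.71% against 5.67%, a difference of 1.29 ± 1.45 that was smaller than its spread (exact permutation p = 0.25, n = 3) and was 0.59 without replicate 1 and 2.22 without replicate 2. Intergenic sequence differed by 1.37 ± 2.29 percentage points, with replicate 2 opposite to the others (exact permutation p = 0.5, n = 3). Without replicate 2 the difference was -19.51 for introns and 11.37 for intergenic sequence, while at single-copy summits, a subset chosen after seeing the data, the intergenic difference was -1.37 and lower in 3 of 3 replicates.

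The exon difference was also seen among CpG-rich peaks. Among peaks with at least 2 CpGs per 100 bp at the summit, a limit chosen after seeing the data, exons still held 8.74 ± 4.58 percentage points more of the repeated peaks (SD, n = 3). This limit did not equalise density: in replicate 2, 655 exonic peaks had 2 to 4 and 308 had 4 or more, against 2278 and 207 intronic ones. At 2 to 4, the exonic and intronic shares in repeated regions were 32.6% and 31.9% in replicate 1. They were 13.4% and 9.26% in replicate 2 and 18.3% and 15.1% in replicate 3. At 4 or more CpGs per 100 bp, 26% of 308 exonic peaks of replicate 2 were in repeated regions against 16.9% of 207 intronic ones, and in replicate 3 the shares were 37.4% of 222 and 20.6% of 141. In replicate 1, which had 44 exonic and 24 intronic peaks of this density, they were 54.5% and 54.2%. Below 2 CpGs per 100 bp the exonic and intronic shares were 5.73% and 6.14% in replicate 2 and 8.98% and 9.33% in replicate 3.

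By canonical transcripts, 99 repeated regions lay mainly in coding sequence (12.5% of members against 5.94% of single-list regions), 32 mainly in 3′ UTRs (4.04% against 2.53%), 183 in first introns (23.1% against 26.1%) and 298 in later introns (37.6% against 39.6%). The 5′ UTR held 1 repeated region (0.126%) and 48 single-list ones (0.384%), too few to set against each other. A protein-coding gene with its 1000 bp upstream was touched by 656 repeated regions (82.7%), close to the 80.8% of single-list regions, while 70 touched only non-coding genes and 67 no gene. The start of a protein-coding gene lay within 2 kb of 58 repeated regions (7.31%, against 6.18%).

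Base-calls gave the modification state of the same CpGs, which took no part in choosing the regions. The share of 5hmC among all calls of a peak, as the median over peaks with at least 10 calls, did not differ between repeated and single-list regions beyond the spread between replicates. It was 27% against 29% in replicate 1 (132 and 144 peaks), 34.2% against 30.8% in replicate 2 (413 and 2331 peaks) and 30.4% against 30% in replicate 3 (352 and 1324 peaks). Replicate 1 was lower in repeated regions and replicates 2 and 3 were higher, so that the difference was 0.618 ± 2.74 percentage points (SD, n = 3; exact sign-flip permutation p = 0.75). It was -4.65 with regions chosen without replicate 2 and -2.05 without replicate 3. The median share of 5mC was lower in repeated regions in all 3 replicates, at 36.2% against 38.8%, 37.5% against 40% and 35.7% against 41.6%, a difference of -3.64 ± 1.92 (exact permutation p = 0.25, n = 3), of -2.09 without replicate 2 and of -1.67 when peaks had to overlap by 50% of both. Unmodified cytosine differed by 1.47 ± 4.32 percentage points (exact permutation p = 1, n = 3), by 4.19 without replicate 2, and by 4.57 at a fold enrichment of at least 4, where it was higher in repeated regions in 3 of 3 replicates. It turned to -1.18 when peaks had to overlap by 50% of both. At single-copy summits, a subset chosen after seeing the data, the median 5hmC share was 30.8% against 30% in replicate 1. It was 35.7% against 31.2% in replicate 2 and 31.4% against 30% in replicate 3, higher in repeated regions in 3 of 3 replicates. At a fold enrichment of at least 4 the difference was -3.81 ± 0.809 percentage points, lower in 3 of 3 replicates. The minimum of 10 calls kept 132 of 170, 413 of 762 and 352 of 718 peaks of repeated regions, and 14 repeated regions had no call in any replicate.

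Summed calls gave another picture, because few deep regions dominate a sum. The pooled 5hmC share was 5.13% in repeated regions against 18.2% in replicate 1, 19.2% against 32.3% in replicate 2 and 20.4% against 31.6% in replicate 3, a difference of -12.5 ± 1.07 percentage points (SD, n = 3; exact sign-flip permutation p = 0.25). The 7 very deep repeated regions had 2.32%, 4.31% and 6.21% 5hmC in replicates 1, 2 and 3. Without regions of that depth the pooled difference was -2.37, and with regions chosen without replicate 2 it was -19.18. At single-copy summits the pooled shares became 29.5% against 30.2%, 34.6% against 32.5% and 32.7% against 31.6%, and the difference turned to 0.85 percentage points.

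**Figure D3:**
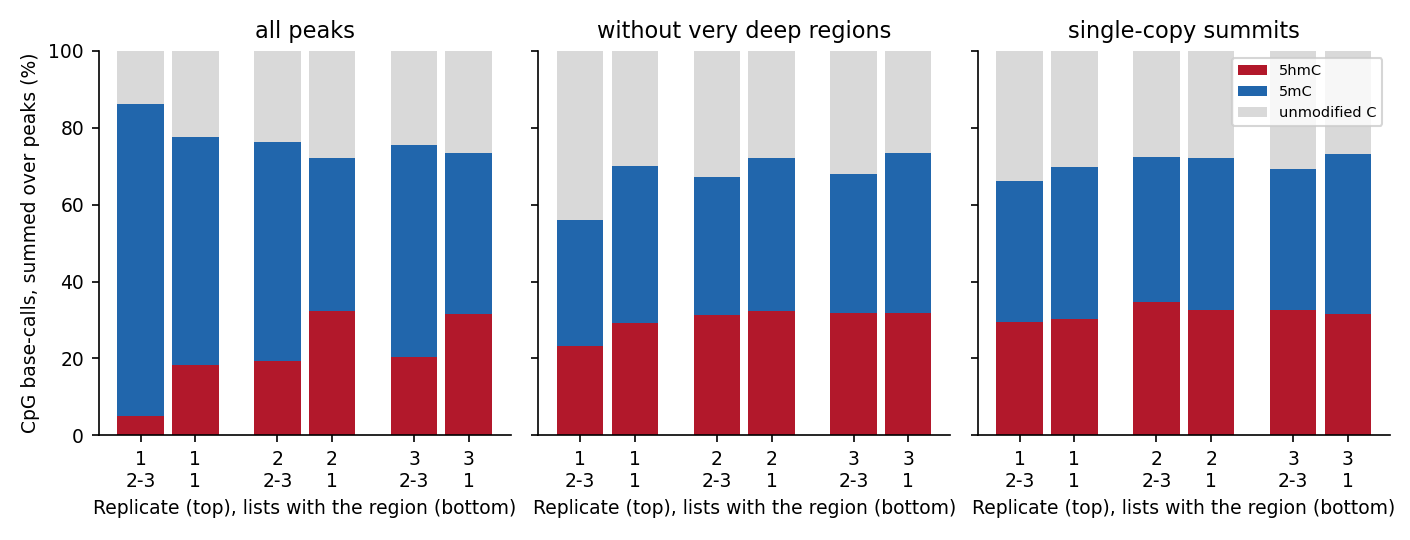
Percentage of CpG base-calls that were 5hmC, 5mC or unmodified C, summed over peaks in regions of 2 to 3 lists or of 1 list, by replicate, for all peaks, without very deep regions, and for single-copy summits only. With all peaks 5mC takes 80.9% of the calls in repeated regions of replicate 1, and with single-copy summits 5hmC is between 29.5% and 34.6% in every bar.

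A replicate that took no part in the choice gave a view of the regions that the rule had not fixed. For each replicate in turn, the other 2 lists were merged, and regions of both were compared with regions of 1. The held-out replicate had more base-calls per CpG in regions of both, with 2.54 against 0.236 in replicate 1 (675 and 12293 regions), 5.94 against 0.367 in replicate 2 (84 and 5466 regions) and 2.99 against 0.284 in replicate 3 (132 and 8731 regions). The difference was 3.53 ± 1.79 calls per CpG (SD, n = 3; exact sign-flip permutation p = 0.25). Most of its size came from very deep regions: without them the values were 0.552 against 0.235, 1.06 against 0.339 and 0.725 against 0.272, a difference of 0.50 in the same direction. Single-copy regions, chosen after seeing the data, gave 0.526 against 0.235, 1.49 against 0.342 and 1.53 against 0.275. They still held the deep regions in Zfhx3 and beside Fam118b. The window beside Fam118b shares stretches of over 31 bases with those of multi-copy regions beside Lrrc4c and Rab10. It counts as single-copy only by its median 31-base word. The median 5hmC share of the held-out replicate, over regions with at least 10 calls, was 27.5% against 28.6% in replicate 1 (186 and 666 regions), 18.2% against 30% in replicate 2 (47 and 471) and 22.5% against 30.6% in replicate 3 (63 and 672), a difference of -6.99 ± 5.47 (exact permutation p = 0.25, n = 3). It was -4.57 without replicate 2, -2.72 without very deep regions and -23.46 with all calls summed, and with a minimum of 5 calls it was -4.77 with 1 of 3 replicates in the opposite direction. In single-copy regions it was 30.6% against 28.6%, 30.6% against 30% and 30.8% against 30.8%. Input reads per CpG were not analysed here, so that the part of mappability and input depth in the held-out depth was not tested.

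Single CpGs of repeated regions also kept part of their state between replicates. Taken over single-copy repeated regions without the very deep ones, CpGs whose calls in one replicate were all 5hmC gave 38.9 to 44% 5hmC in another replicate over the 6 ordered pairs of replicates, each with 807 to 1470 CpGs. CpGs called only as 5mC in the first replicate gave 29.3 to 35.8% 5hmC and 45.4 to 50.4% 5mC in the other. CpGs called only as unmodified gave 21.1 to 28.4% 5hmC and 44.5 to 56.4% unmodified calls. The ranges of 5hmC for these 3 states did not overlap. Single-list regions gave similar values for 5hmC after 5hmC, at 38.7 to 41%. Most CpGs had 1 or few calls, and the 3 replicates were of the same DNA, so that these shares describe repeated reads of one tissue sample.

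Among the members, 148 had at least 20 calls in each replicate that called them. In 5 of these 5hmC made up at least 50% of calls in each, in 8 it made up under 10%, in 23 the 5mC share was at least 50% and in 18 the unmodified share was. The region with the highest 5hmC share lay at chr1:134266903-134268141 in intergenic sequence, 6856 bp from the nearest start, that of Ppfia4, a liprin of presynaptic active zones. Its 5hmC share was 73.7% of 38 calls in replicate 2 and 67.3% of 49 in replicate 3, and replicate 1, which did not call it, gave 66.7% of 9. The region in exon 1 of Kcnd2 (chr6:21216322-21217343) had 60% of 30 calls in replicate 2 and 67.4% of 46 in replicate 3, with intervals of 40.6 to 77.3% and 52 to 80.5%. The region in Akap7 (chr10:25046625-25047389), which codes for an anchor of protein kinase A, gave 59.1% of 22 calls in both replicates that called it and 43.8% of 16 in replicate 1. Mtcl1, a microtubule crosslinking factor, had 50% of 22 calls in replicate 1 and 56.7% of 30 in replicate 2, while replicate 3, which did not call it, gave 33.3% of 15 with 60% unmodified. Exon 4 of Emilin3, an extracellular matrix glycoprotein gene, was the only region of all 3 lists in this group of 5 (chr2:160748815-160750607). Its 5hmC share was 58.6% of 29 calls, 50% of 66 and 54.5% of 22, and its fold enrichment was 6.61, 4.79 and 4.84.

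Other regions were mostly unmodified or mostly 5mC. Tmem121, which codes for a transmembrane protein, had a region at chr12:113151492-113152136 with 7.91 CpGs per 100 bp and 82.9% unmodified calls of 76 in replicate 1 and 68.8% of 48 in replicate 3. Its 5hmC share was 11.8% (95% exact interval 5.56 to 21.3%) and 8.33% (2.32 to 20%). The intronic region of Dync1li2 had 62.5% of 48 calls unmodified in replicate 1 and 73.3% of 30 in replicate 3. In Smarcal1, which codes for a DNA-annealing helicase, the unmodified share was 68.6% of 35 calls and 69.6% of 23 in replicates 1 and 2. The lowest 5hmC shares belonged to very deep regions rich in 5mC. The region at chr2:98496582-98497736 had 1.7% 5hmC of 23968 calls, 2.72% of 8576 and 2.6% of 5198, and the one beside Fam118b had 3.79% of 448, 3.08% of 130 and 7.14% of 56. Of the 8 regions under 10%, 7 were multi-copy or very deep.

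The densest CpGs were found in 2 coding regions and 1 intron. Ccdc177, a coiled-coil gene, had 131 CpGs in 994 bp (13.2 per 100 bp), with a 5hmC share of 37.1% of 62 calls in replicate 1, which did not call it, 6.45% of 186 in replicate 2 and 21.4% of 84 in replicate 3. These intervals of the replicates that called it, 3.38 to 11% and 13.2 to 31.7%, did not overlap. Nrxn2, which codes for a presynaptic adhesion protein, had 139 CpGs in 1063 bp and 11.8%, 8.55% and 18.5% 5hmC. The region in intron 7 of Zfhx3, a homeobox gene, had 11.39 CpGs per 100 bp and was among the very deep ones, with 915, 1403 and 2862 calls. Its fold enrichment was 4.01, 7.55 and 18.20 in replicates 1, 2 and 3, while its 5hmC share was 19.6%, 15% and 13%.

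Of the 53 regions of all 3 lists, 33 touched a protein-coding gene, 7 only a non-coding one and 13 none. The median 31-base word of 17 of these regions occurred more than once in the genome, and none of those 17 touched a protein-coding gene. This share, 32.1%, was above the 2.97% of regions of exactly 2 lists and the 2.68% of single-list regions. The other 36 were single-copy by this count, with the region beside Fam118b among them. Of the 36, 11 lay mainly in exons, 6 in promoters, 17 in introns and 2 in intergenic sequence. The fold enrichment was highest in replicate 1 in 29 of the 53. The lowest of the 3 values was at least 5 in 11 regions, and of the 10 with the largest such value only Kcnj11 lay in a protein-coding gene, with 8.50, 7.66 and 6.78. 5hmC made up 27.9% of 129, 48.2% of 85 and 63.2% of 68 calls at Kcnj11 in replicates 1, 2 and 3, and the 95% exact intervals ran from 20.4 to 36.5%, from 37.3 to 59.3% and from 50.7 to 74.6%. The share of replicate 1 was below the median of 29% of its single-list peaks, and its interval did not overlap those of the other 2. The region at chr13:99221488-99222507 (8.07, 12.87 and 19.48) held 1 CpG and had no base-calls, so that no 5hmC was read there.

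**Figure D4:**
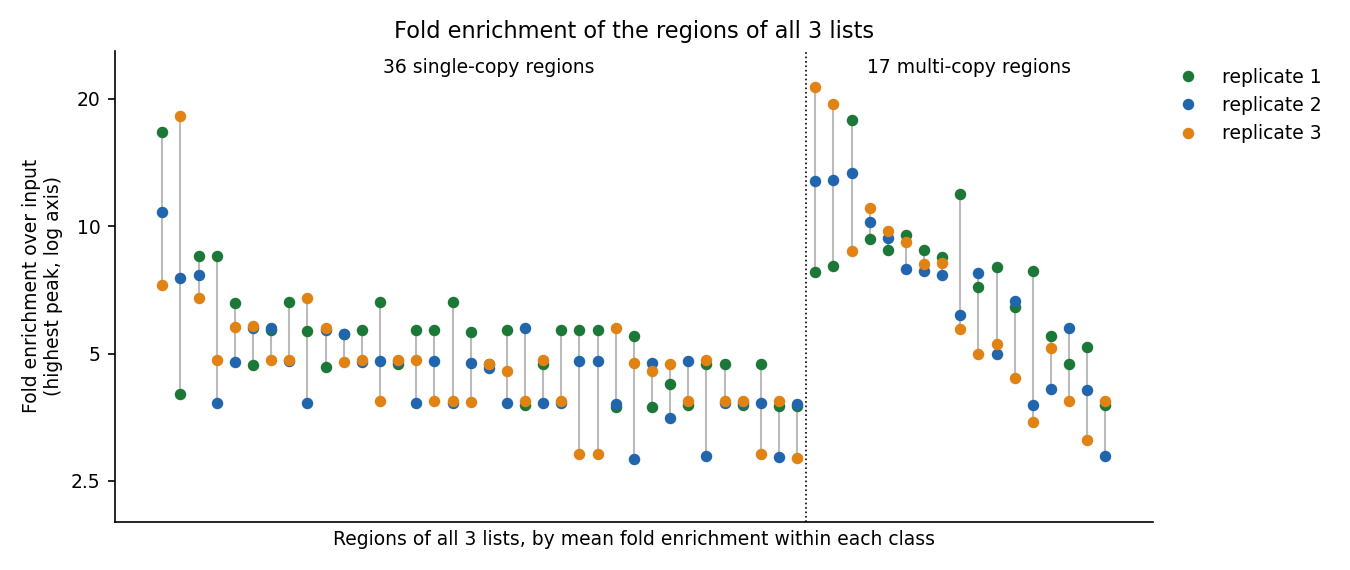
Fold enrichment over input (highest peak, log axis) of the 53 regions of all 3 lists in replicates 1, 2 and 3, with a line from the lowest to the highest, split into 36 single-copy and 17 multi-copy regions and ordered by mean within each. The largest fold enrichment, 21.3 in replicate 3, is in a multi-copy region. In most single-copy regions the 3 values lie close to one another. Fold enrichments recur at few values, so that this closeness does not measure agreement between replicates.

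Single-copy regions of all 3 lists lay in genes of several kinds. Adcy9, an adenylyl cyclase, had fold enrichments of 4.72, 4.62 and 4.72 in its coding sequence. There 54.5% of 11, 63.6% of 22 and 90.9% of 11 calls were 5hmC. Lrrc4b, a synaptic adhesion gene, had a coding region of 9.33 CpGs per 100 bp with 26.8% of 142 calls, 21.3% of 89 and 17% of 94. Celsr2 had 14.1%, 18.3% and 29.5% 5hmC and 76.9%, 63.5% and 55.7% 5mC. Prox1, a homeobox regulator of neurogenesis, had a promoter region with 55.1% of 49 calls, 34.1% of 44 and 18.2% of 22. Prkcb, which codes for protein kinase C beta, and Camk1d, a calcium and calmodulin dependent kinase, had intronic regions with fold enrichments of 4.72, 2.87 and 4.84 and of 8.50, 3.83 and 4.84. The exact intervals of the 3 shares of Adcy9 overlapped, at 23.4 to 83.3%, 40.7 to 82.8% and 58.7 to 99.8%. Those of Prox1, at 40.2 to 69.3%, 20.5 to 49.9% and 5.19 to 40.3%, overlapped as well, if barely between replicates 1 and 3.

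A cluster of multi-copy regions between Ezh2 and Pdia4, singled out after its values were seen, held 9 of the 17 multi-copy regions of all 3 lists. It ran over 122 kb of chromosome 6 (chr6:47632809-47755118), of which 50000 bases are unknown in the assembly, and held 24 regions of 15 to 17 copies by their 31-base words. Of these, 13 were repeated regions. CpG density was 2.90 to 8.22 per 100 bp. The calls were mostly unmodified, at 68.2% of 2306, 68.1% of 2155 and 62% of 1508 calls of replicates 1, 2 and 3, and 5hmC was 10.3%, 12% and 14.1%. Reads of such copies may not be assignable to one of them, which was not tested, so that the fold enrichment of a single copy is uncertain.

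**Figure D5:**
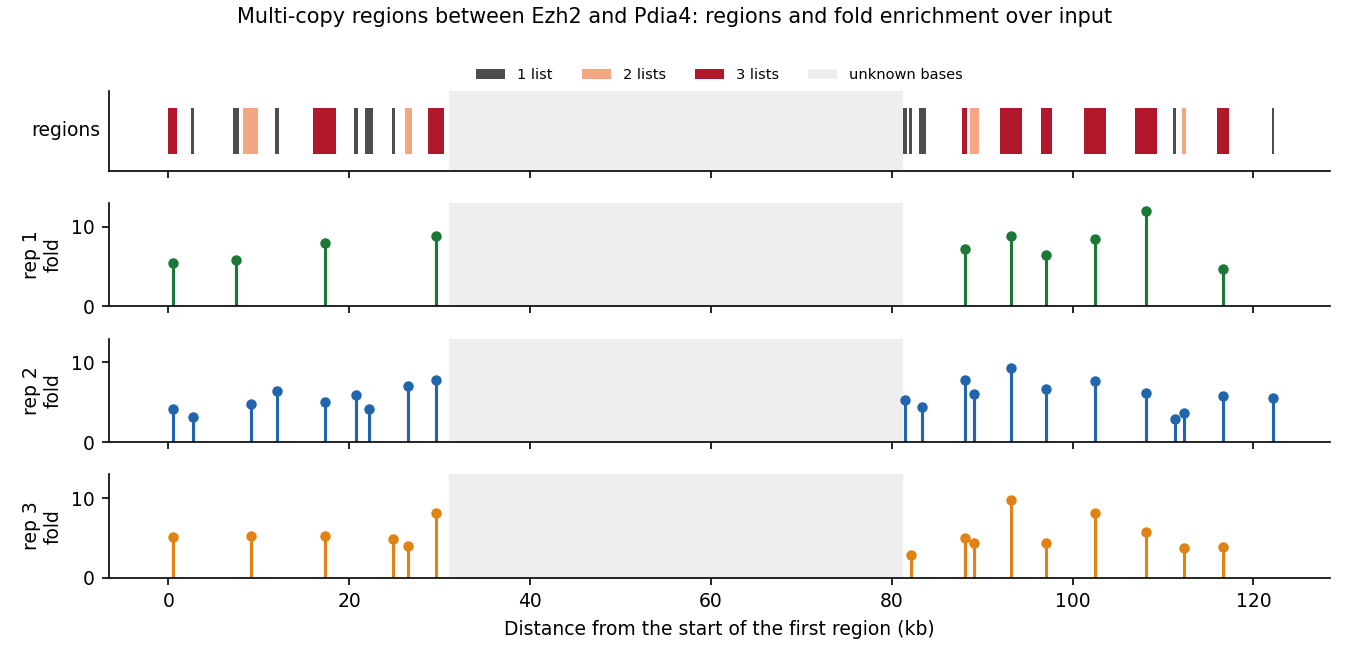
Regions of the multi-copy cluster on chromosome 6 by distance from the start of the first one, coloured by the number of lists (top), and the highest fold enrichment over input per region in replicates 1, 2 and 3 (below); grey marks 50 kb of unknown bases. Regions of all 3 lists lie on both sides of the unknown stretch, with fold enrichments of up to 11.91 in replicate 1 and 9.76 in replicate 3.

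Of 20604 protein-coding genes of chromosomes 1 to 19, 557 (2.70%) held a repeated region, while 4389 (21.3%) held a region of any list. Genes with a repeated region were long, with a median of 76.5 kb against 49.6 kb for genes with single-list regions only and 19.3 kb for all. Counts of genes are therefore given beside the share of a list's regions that were repeated, which was 6.10% (656 of 10753) over all protein-coding genes. There were 104 genes with at least 2 repeated regions and 28 with at least 3.

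Mical3, an actin-oxidising monooxygenase gene of 199 kb, held the most, with 6 repeated regions of 26 in all. Of these 4 lay in its first intron, and 5hmC made up 46.2% of 26, 47.7% of 86 and 38.6% of 70 calls over them. Mtcl1, Itpk1 (an inositol phosphate kinase) and Tcf4 (a helix-loop-helix transcription factor) each held 5. Those of Mtcl1 had 37.5%, 42.3% and 41.4% 5hmC of 104, 196 and 133 calls, and those of Itpk1 had 26.7%, 31.4% and 29.8% of 30, 70 and 57. Setd7, a lysine methyltransferase gene of 45.6 kb, held 4 repeated regions of 7, in its first and later introns. Ppp3ca, the catalytic subunit of calcineurin, held 4 in its first intron. Wdfy3, an autophagy adaptor, Tiam1, an activator of Rac, and Foxn3, a forkhead repressor, also held 4 each, and Tiam1 had 38 regions in all. Genes with 3 included Rhbdf2, Grm4, Myo18a, Ece1, Galnt2 and St8sia5. Galnt2, which starts O-glycosylation, had 54.5% of 11, 46.8% of 79 and 48% of 25 calls as 5hmC, and Rhbdf2, an inactive rhomboid, had 26.3% of 95, 35.4% of 65 and 22% of 82.

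Among lists of neuronal genes, those of potassium channels and of glutamate receptors with the postsynaptic density had the largest shares of repeated regions, as a description with no test. Each of these shares rests on 8 repeated regions, so that its distance from 6.10% is uncertain. Potassium channels set the excitability of granule and Purkinje neurons, and 8 of 32 listed genes held a repeated region, with 8 of 73 regions repeated (11%, against 6.10% over all protein-coding genes). These were Kcnj11, Kcnd2, Kcnj9, Kcnc1, Kcna1, Kcnd3, Kcnj12 and Kcnk1. Kcnj9, a G protein-gated inward rectifier, had fold enrichments of 5.67 and 5.74 in replicates 1 and 2 and 7.38 CpGs per 100 bp, with 39% of 59 calls as 5hmC in replicate 1 and 19.3% of 57 in replicate 2. Replicate 3, which did not call it, gave 52.4% of 21. Kcnc1, a fast-spiking Kv3 channel, had 5.74 in replicate 2 and 3.87 in replicate 3, with 37.8% of 45 and 15.4% of 13 calls as 5hmC, and replicate 1, which did not call it, gave 25% of 20.

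Glutamate receptor and postsynaptic genes held repeated regions in 5 of 31 cases, with 8 of 71 regions repeated (11.3%). Grm4, the metabotropic receptor at parallel fibre terminals, held 3, and the one in its coding sequence (chr17:27721127-27722272) was mostly unmodified in replicates 1 and 3, at 58.8% of 34 and 81% of 84 calls. Replicate 2, which did not call it, gave 27.5% of 40. Grin2c, the NMDA receptor subunit typical of adult granule neurons, had fold enrichments of 6.65 and 2.89 in replicates 2 and 3, and 66.7% of 9 and 53.3% of 15 calls as 5hmC, while replicate 1, which did not call it, gave 6 calls that were all unmodified. Shank3, a postsynaptic scaffold, held 2, and the one of all 3 lists had 3.74, 4.75 and 4.55. Dlg2, another scaffold, had 25% of 32 calls in replicate 2 and 10.9% of 46 in replicate 3 as 5hmC, with overlapping intervals of 11.5 to 43.4% and 3.62 to 23.6%.

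The calcium channel and adhesion lists held more regions, with repeated shares below the 6.10% over all protein-coding genes. With 7 repeated regions each, that distance is uncertain as well. Calcium channels and stores had 7 of 169 repeated (4.14%) in 4 of 23 genes, namely Cacna1c with 3, Cacna1a, the pore of the P/Q-type channel of Purkinje neurons, with 2, and Cacna1d and Cacnb2 with 1 each. Synaptic adhesion genes had 7 of 158 (4.43%), 1 each in 7 of 32 genes. The regions in Cntnap4 and Cacnb2 were multi-copy. Axon guidance genes had 3 of 112 regions repeated (2.68%), in Ephb1 and Sema6d, and genes of the GABA and glycine synapse 2 of 36 (5.56%), in Nlgn2 and Gabbr2.

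Markers of the tissue's cell types were compared in the same way, although enrichment of DNA does not measure expression. Granule neuron genes had a repeated region in 5 of 24 cases (Tiam1, Nfix, Nfib, Grin2c and Fat2), with 9 of 115 regions repeated (7.83%). Purkinje neuron genes had one in 2 of 24 (Dab1 and Plcb4; 2 of 66 regions, 3.03%) and astroglia genes in 1 of 17 (Slc4a4, with 2 of 14 regions, 14.3%). None of 17 oligodendrocyte genes, of 21 liver genes or of 24 muscle genes had one, but these lists held only 6, 3 and 12 regions in all, which is too few to set against 6.10%. Their median gene lengths, 17.2, 10.2 and 21.4 kb, were shorter than the 31.2 kb of the granule neuron genes. Genes of DNA methylation and demethylation had 2 of 24 regions repeated (8.33%), in Kdm2b and Zbtb38, and housekeeping genes 1 of 11 (9.09%), in Tubb5. With 1 or 2 repeated regions each, the shares of these lists and of the astroglia list are likewise too uncertain to set against 6.10%.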

How the data were processed

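The deposited files were the narrow peak lists of 3 hMeDIP replicates and counts of base-calls at CpGs. Per the labels and methods, the authors base-called with Dorado, aligned to mm39 with minimap2 and called peaks in each replicate with MACS2 against 1 input library. Each peak has, as deposited, a fold enrichment over input (a ratio), a p-value and a q-value (both as −log10) and a display score. The deposited percent values are calls of a modification over valid calls, and the authors made these and the counts with modkit, on the forward strand.

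Peaks on chromosomes 1 to 19 were merged at an overlap of 1 bp. CpGs and GC were counted in 300 bp of GRCm39 around summits, and genes were those of GENCODE M39 by symbol. A region or summit was called multi-copy when its median 31-base word occurred more than once in the assembly, and single-copy otherwise. Only exact words were counted, so that copies that differ in sequence or are missing from the assembly were not. Shares of 5hmC, 5mC and unmodified C were taken over the calls of a replicate in its own peaks, as the median over peaks with at least 10 calls. Differences were computed within each replicate and tested by two-sided exact sign-flip permutation over the 3 replicates, whose smallest p is 0.25 and, with 2, 0.5. Intervals are exact Clopper-Pearson intervals at 95%, and like counts of calls they cover counting error only, since calls along a read are not independent. Depth was 68673, 101734 and 73834 calls in replicates 1, 2 and 3.

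The regions named were those of all 3 lists with the largest lowest fold enrichment, those with extreme 5hmC, unmodified C, CpG density or length, genes with at least 3 repeated regions, up to 4 genes for each of 14 gene lists, and Kcnj11, with others said to be chosen later. The members, gene lists and tests were chosen with earlier results of these data known. The alternatives were a fold enrichment of at least 4, q at or below 0.01, an overlap of 50% of both peaks, other minimums of calls, windows and features, no very deep regions, and leaving out each replicate. Single-copy sets and the limit of 2 CpGs per 100 bp were added after seeing the data. Peaks outside chromosomes 1 to 19, promoter sequences of another build and the input library were not used here, and a few named items are not reported here. The work was done in Python 3.11.15 with pandas 2.3.3, numpy 2.4.6, numba 0.67.0, pysam 0.24.0, scipy 1.17.1 and matplotlib 3.10.9, and the merging, call sums, tests and word counts were tested on simulated data.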

Additional observations from a re-analysis of the deposited data

Results flagged for a closer look

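The median 5hmC share of peaks in repeated regions minus that in single-list regions was -2.02 percentage points in replicate 1, made with whole serum antibody, and 3.44 and 0.435 in replicates 2 and 3, made with IgG-purified antibody. The sign thus differed between the antibodies, a difference that was not tested, since one antibody had 1 replicate. At single-copy summits, a subset chosen after seeing the data, the share was higher in repeated regions in 3 of 3 replicates. With a fold enrichment of at least 4 it was lower in 3 of 3.

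Outside chromosomes 1 to 19, which the comparisons did not use, the same rule gave 7 regions with peaks of 2 or more lists, 3 on chromosome X and 4 on chromosome Y. Of these 3 held peaks of all 3 lists. The labels give a female mouse, and the lists held 13 peaks on chromosome Y in 8 merged regions.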

How the results depend on the processing

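No paired analysis of the antibody groups was possible because they share no replicate number, and they were not compared. Members were set against single-list regions inside each replicate, which pairs them by replicate. Of 112 alternatives, 97 kept the direction of a difference or, for the number of regions and fold enrichment, moved by less than the limit set for them. The differences in CpG density, GC content, exons, introns, promoters, 5mC and held-out depth kept their direction under every alternative that was run for them but not their size: without very deep regions held-out depth fell from 3.53 to 0.50 calls per CpG, and at a fold enrichment of at least 4 the intron difference was -24.53 and the intergenic one 12.66. The median 5hmC difference, 0.618 percentage points, was -3.81 at a fold enrichment of at least 4, -0.0906 with an overlap of 50% of both peaks, and between -4.65 and 2.27 on leaving out a replicate. That of unmodified C became -1.18 with an overlap of 50%. Single-copy summits or regions, added after seeing the data, turned the pooled 5hmC difference to 0.85, the held-out 5hmC difference to 0.87 and the intergenic difference to -1.37. The number of repeated regions was 153 at a fold enrichment of at least 4, 500 at q at or below 0.01 and 367 with an overlap of 50%, and it ranged from 84 to 675 on leaving out a replicate. The difference in median fold enrichment, 0.0681, was 0.19 at q at or below 0.01 and 0.0131 to 0.77 on leaving out a replicate. The cause of these changes was not tested, apart from the smaller number of peaks or replicates that some settings leave. With 3 replicates of one DNA sample no p could fall below 0.25, and CpGs with few calls limit the precision of each region's share.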

Other observations

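Among the single-copy regions of all 3 lists, 6 were assigned to promoters, where a base in the 1000 bp before the start of any annotated gene, coding or not, counted as promoter even if an exon also held it. Some of them covered exons: that at Ntn3 those of Ntn3 itself, that at Tppp3 the end of Zdhhc1, and that at Dpm1 lay within an exon of Mocs3. Besides that of Prox1, they were at Ntn3, a secreted netrin, at Tppp3, a tubulin-binding protein, at Dpm1, a subunit of dolichol phosphate mannose synthase, at Nkain1, a partner of the sodium pump, and at Lpp, a LIM domain protein of focal adhesions. The fold enrichment of the Tppp3 region was 3.78, 3.83 and 3.87, and its 5hmC share was 37% of 27 calls, 29.4% of 34 and 37.2% of 43. That at Ntn3 had 13.9% of 72, 28.3% of 106 and 55.6% of 9, and that at Dpm1 had 19.7% of 76, 70.6% of 17 and 22.4% of 67. The shares were close to one another at Tppp3 and far apart at Dpm1, where replicate 2 had the fewest calls.

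In Gtpbp6, Tnrc18 and Sh3pxd2a, regions of all 3 lists touched exons as well. Tnrc18 had 6.20 CpGs per 100 bp, fold enrichments of 5.64, 3.83 and 6.76, and 5hmC shares of 24.2% of 66 calls, 33.3% of 57 and 34% of 100. Sh3pxd2a, a scaffold of podosomes, had 17.3% of 52, 22.9% of 109 and 43.3% of 60, and Gtpbp6, a GTP-binding protein gene, had 42.1% of 19, 26.9% of 26 and 27% of 89.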
